A study of Mus musculus with 6 samples.

Results

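The 33 genes described here encode enzymes of sterol and fatty acid synthesis and the proteins that control them through SREBP. They were chosen by name, as a pathway, and all 33 were found among 22360 genes with a symbol. The comparison was between MSC21, a population of mesenchymal stem cells from mouse bone marrow, and Clone 4L.1.4, a tertiary clone derived from that population. Mesenchymal stem cells are adherent stromal cells that can form bone, fat and cartilage. Cells of both groups were grown to confluence in the same commercial stem cell medium, with no drug treatment or transgene named in the labels. Each group had 3 arrays, made from cell samples described as independent. The sources used here do not give the mice's age, sex or strain. The clone is 1 clone, and the labels do not say whether samples came from separate animals, so p-values measure the spread between these cultures. Levels are log2 values made by the authors with RMA, and a difference is clone minus population on that scale.

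Cholesterol is built from acetyl-CoA. The early enzymes make mevalonate and turn it into the isoprenoid farnesyl diphosphate, and the later ones join farnesyl units into squalene, close the rings to lanosterol and trim lanosterol to cholesterol. SREBP transcription factors, the products of Srebf1 and Srebf2, are made as precursors in the membrane of the endoplasmic reticulum. Scap carries them to the Golgi for cleavage when sterol is scarce, and the Insig proteins hold Scap back when sterol is plentiful. In many cell types SREBP-2 acts mainly on sterol genes and SREBP-1c mainly on fatty acid genes, often together with the factors NF-Y and Sp1 at the same promoter.

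Promoter sequences were available for 26 of the 33 genes, in 34 windows of 300 bases (250 before and 50 after the annotated start site), from RefSeq on GRCm38.p6. The 7 windows printed here belong to 4 early enzymes that were lower in the clone (Hmgcs1, Mvd, Idi1 and Ggps1), to 2 enzymes that were higher (Mvk and Tm7sf2) and to Srebf2. Capitals mark the NF-Y box CCAAT on either strand (ATTGG where it lies on the other strand) and, in Hmgcs1, the SREBP core TCACNCCAC.
Hmgcs1, chr13:119690101-119690400, plus strand: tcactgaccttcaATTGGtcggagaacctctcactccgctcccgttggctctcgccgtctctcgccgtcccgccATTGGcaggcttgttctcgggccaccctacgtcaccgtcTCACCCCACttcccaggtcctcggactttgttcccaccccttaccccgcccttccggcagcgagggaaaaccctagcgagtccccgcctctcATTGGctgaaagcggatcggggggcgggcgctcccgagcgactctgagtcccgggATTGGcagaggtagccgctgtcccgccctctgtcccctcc
Mvd, chr8:122443373-122443672, minus strand: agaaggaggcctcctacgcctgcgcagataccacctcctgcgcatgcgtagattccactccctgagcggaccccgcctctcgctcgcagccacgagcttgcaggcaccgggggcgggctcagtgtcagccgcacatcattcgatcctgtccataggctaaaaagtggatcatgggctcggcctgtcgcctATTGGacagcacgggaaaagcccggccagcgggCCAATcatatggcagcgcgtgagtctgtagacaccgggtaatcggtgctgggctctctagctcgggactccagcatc
Idi1, chr13:8885356-8885655, plus strand: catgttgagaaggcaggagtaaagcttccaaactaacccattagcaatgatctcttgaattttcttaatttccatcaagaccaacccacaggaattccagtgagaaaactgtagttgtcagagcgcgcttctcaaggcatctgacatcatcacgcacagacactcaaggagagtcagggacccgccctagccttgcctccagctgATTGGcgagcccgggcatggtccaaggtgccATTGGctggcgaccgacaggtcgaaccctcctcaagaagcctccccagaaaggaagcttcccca
Ggps1, chr13:14063439-14063738, minus strand: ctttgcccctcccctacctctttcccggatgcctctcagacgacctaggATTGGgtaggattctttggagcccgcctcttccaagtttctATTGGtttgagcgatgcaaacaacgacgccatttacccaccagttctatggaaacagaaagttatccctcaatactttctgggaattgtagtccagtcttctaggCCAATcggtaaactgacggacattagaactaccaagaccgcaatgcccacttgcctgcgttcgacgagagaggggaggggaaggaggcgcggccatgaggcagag
Mvk, chr5:114444019-114444318, plus strand: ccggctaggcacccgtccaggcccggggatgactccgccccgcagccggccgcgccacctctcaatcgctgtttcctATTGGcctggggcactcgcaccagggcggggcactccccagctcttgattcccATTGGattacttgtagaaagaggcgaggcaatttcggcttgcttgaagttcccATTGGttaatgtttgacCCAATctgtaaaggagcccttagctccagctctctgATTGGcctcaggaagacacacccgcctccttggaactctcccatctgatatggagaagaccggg
Tm7sf2, chr19:6067801-6068100, minus strand: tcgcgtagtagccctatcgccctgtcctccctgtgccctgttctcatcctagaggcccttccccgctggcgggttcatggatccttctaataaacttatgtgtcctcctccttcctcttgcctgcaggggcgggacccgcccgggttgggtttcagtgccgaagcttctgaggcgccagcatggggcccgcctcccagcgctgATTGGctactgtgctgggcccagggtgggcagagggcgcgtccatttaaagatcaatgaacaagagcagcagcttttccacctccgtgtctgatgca
Srebf2, chr15:82147019-82147318, plus strand: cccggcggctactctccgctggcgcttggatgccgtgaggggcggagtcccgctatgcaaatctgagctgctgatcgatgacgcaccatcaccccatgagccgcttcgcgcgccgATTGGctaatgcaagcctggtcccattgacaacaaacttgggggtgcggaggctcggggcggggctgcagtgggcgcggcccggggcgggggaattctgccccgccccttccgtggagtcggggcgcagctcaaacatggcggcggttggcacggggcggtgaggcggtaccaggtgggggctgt

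The SREBP core, searched on both strands, was found in 1 of the 34 windows, that of Hmgcs1, where its first base lay 137 bases before the start site. It was found in 1.24% of all 32851 windows of the same length. Only exact matches were counted, so a window without a match can hold a sequence close to the core. The Srebf2 window, for example, holds TCACCCCAT, which differs from the core in its last base. The NF-Y box was found in 22 of 34 windows (64.7%) against 37.4% of all windows, and the Sp1 box GGGCGG in 25 (73.5%) against 35.7%. The E-box CACGTG was found in 5 windows (14.7%) against 7.15%. No match overlapped one of another motif. By gene, an NF-Y box lay in a window of 10 of the 12 lower genes with a sequence, in 6 of the 7 higher ones and in 5 of the 7 others. Mvk, which was higher, had 5 NF-Y boxes, and Hmgcs1, which was lower, had 4. Genes with several windows can share bases between them, and a match describes letters only.

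**Figure D1:**
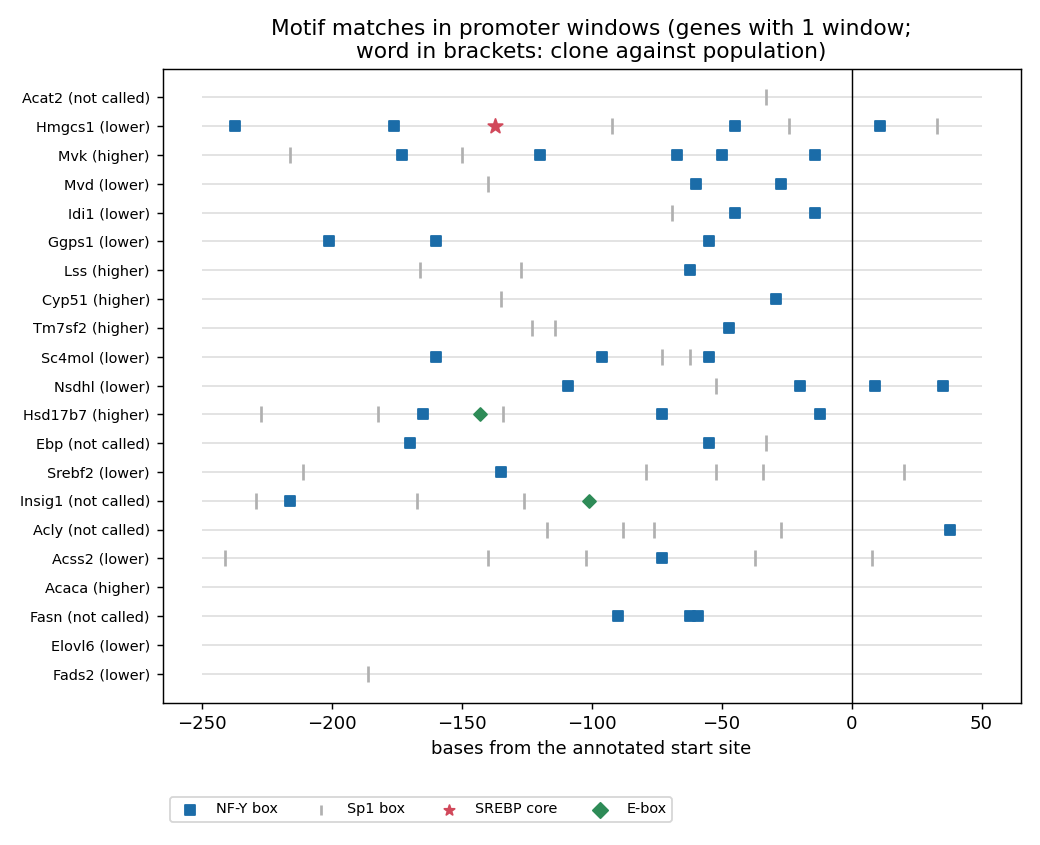
Matches to 4 short motifs in the promoter windows of the 21 genes with a single window; the x axis is the distance in bases from the annotated start site, each line is a gene, and the word in brackets gives its call in the clone. NF-Y boxes lie within the 100 bases before the start site in genes of all 3 kinds of call, and an exact match to the SREBP core appears in Hmgcs1 alone among these genes.

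Arrays of a group correlated at r = 0.995 to 0.996 across rows and arrays of different groups at 0.975 to 0.979. Array medians lay between 5.19 and 5.25. All 33 genes had a mean level above these medians in both groups, from 5.74 upwards, and SDs within a group reached 0.224. Of 12 stromal markers none lay below the array medians in both groups, and 3 were higher and 7 lower in the clone, Nt5e and Thy1 falling below the medians there. Among all genes above the median level 26.1% were called higher and 25.1% lower. All 11 blood cell markers and all 6 endothelial markers lay below the medians in both groups and none changed. The pan-leukocyte gene Ptprc, for example, stood between 4.30 and 4.46 on all 6 arrays. Of 10 adipocyte markers 7 were higher in the clone and none lower, where 14.5% of all genes with a symbol were called higher and 14.5% lower. The summed linear level of the 10 adipocyte markers was 348 to 368 in the population and 2117 to 2406 in the clone. Most of the clone's sum came from Lpl, the lipoprotein lipase gene, which went from a mean of 5.37 to 10.73. Fabp4 (6.21 to 7.85), Plin1 (4.45 to 5.52) and Cd36 (4.61 to 5.24) also rose, the last 2 from population levels below the array medians. Adipoq (4.64 to 5.09), Cfd and Retn rose but stayed below the medians, where Lep (4.35 and 4.37) and Cidec lay without a call. Pnpla2 (6.37 and 6.26), above the medians, had no call either. The part of these markers in the results below was not tested, and in such bulk samples fewer cells of a type and less RNA per cell cannot be told apart.

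Of the 33 genes, 18 were lower in the clone and 8 higher at an adjusted p under 0.05 (limma's moderated test, Benjamini-Hochberg adjustment over 35556 rows), and 7 did not pass. The lower calls made up 54.5% of the 33 genes. Among all genes with a symbol 14.5% were called lower and 14.5% higher. Among the 11453 such genes above the median level, where all 33 lie, 25.1% were called lower and 26.1% higher. The higher calls were 24.2% of the 33 genes, close to that background. The median difference of the 33 genes was -0.24, beside 0.03 for the genes above the median level. Groups did not overlap for 28 of the 33 genes, with the clone lower for 19 and higher for 9, where 31.5% of genes above the median level had the clone wholly lower and 35.0% wholly higher. Changes were small: none of the 33 genes reached 2-fold, and the largest fold was 1.96. A fall of at least 1.5-fold was called for 8 genes, where the background was 12.0%, and a rise of that size for 1, where it was 8.22%.

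**Figure D2:**
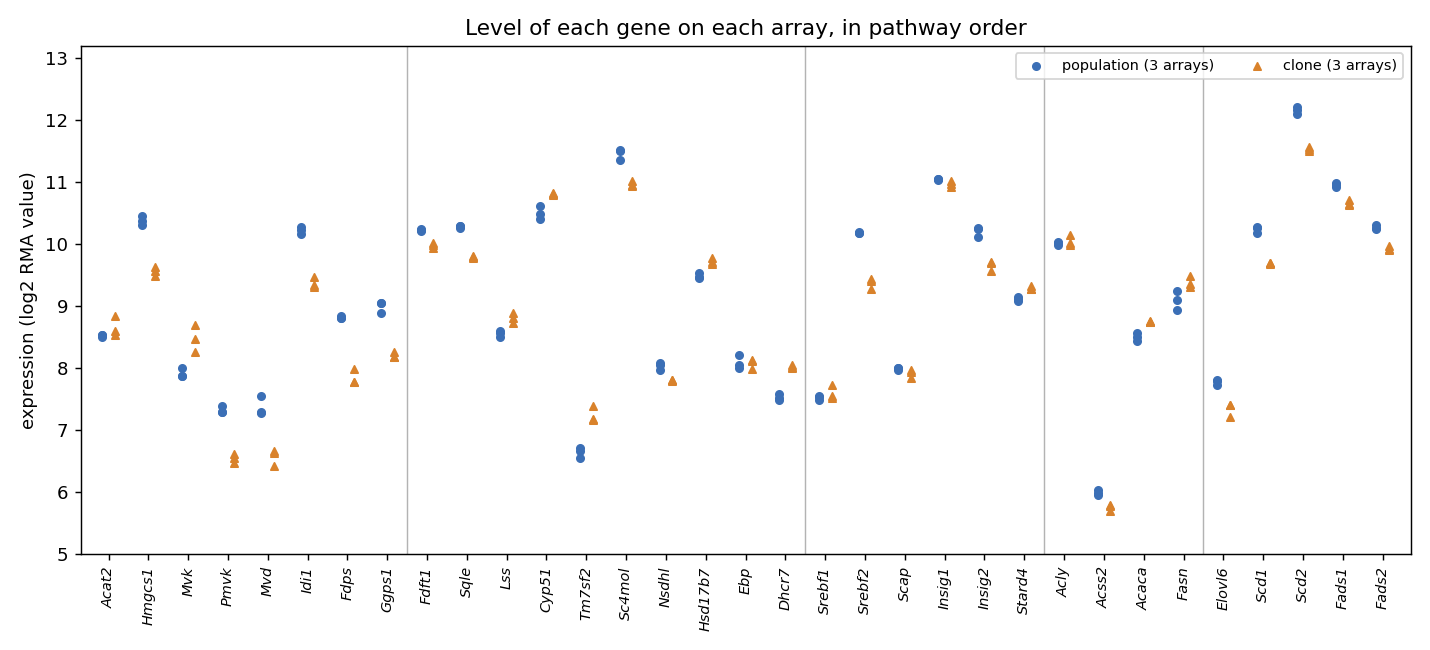
Log2 level of each of the 33 genes (y axis) on each of the 3 population arrays (circles) and 3 clone arrays (triangles), in pathway order along the x axis, with grey lines between role groups. The clone arrays lie below the population arrays for 19 genes and above them for 9, and the groups overlap for 5, where 31.5% and 35.0% of the genes above the median level lie wholly below and above; levels of different genes come from different probes and are not to be set against each other.

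The mevalonate and isoprenoid enzymes held the largest falls: 6 of 8 were lower, 1 was higher and 1 did not pass, with a median difference of -0.79. The background among genes above the median level was 25.1% lower and 26.1% higher. Acat2, the thiolase that joins 2 acetyl-CoA units, lay at 8.53, 8.53 and 8.49 on the population arrays and at 8.60, 8.83 and 8.53 on the clone arrays. These groups overlapped, and Acat2 did not pass (0.14 ± 0.08, difference ± SE; 95% interval -0.07 to 0.34; adjusted p = 0.344). Hmgcs1, which encodes the HMG-CoA synthase of the next step, went from 10.30, 10.37 and 10.46 to 9.56, 9.48 and 9.63. Every clone array lay below every population array, a 1.77-fold fall (-0.83 ± 0.07, adjusted p = 0.000197).

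The 2 kinases of the pathway moved in opposite directions. Mvk, the mevalonate kinase, stood at 8.0, 7.86 and 7.87 in the population and at 8.25, 8.69 and 8.46 in the clone. It rose 1.47-fold (0.56 ± 0.11, adjusted p = 0.0130), with the clone arrays spread more widely (SD 0.224) than the population arrays (SD 0.0787). Without limma's moderation of the spread Mvk did not pass (adjusted p = 0.0735). Pmvk, the phosphomevalonate kinase that acts directly after it, fell from 7.38, 7.29 and 7.29 to 6.54, 6.60 and 6.47. Its groups did not overlap and its fall was 1.72-fold (-0.78 ± 0.06, adjusted p = 0.000158).

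Mvd, the decarboxylase that yields isopentenyl diphosphate, went from 7.54, 7.29 and 7.27 to 6.41, 6.66 and 6.63. Its difference of -0.80 ± 0.10 (1.74-fold, adjusted p = 0.00158) had the widest interval of the 6 falls, -1.04 to -0.56. Idi1, the isomerase of isopentenyl diphosphate, went from 10.16, 10.28 and 10.23 to 9.46, 9.30 and 9.33, a 1.81-fold fall (adjusted p = 0.000158). A further row for Idi1 gave nearly the same difference, -0.81 beside -0.86. Fdps, the farnesyl diphosphate synthase that supplies both sterols and prenylated proteins, went from 8.84, 8.80 and 8.80 to 7.77, 7.98 and 7.77. This was the largest fall among the 33 genes, 1.96-fold (-0.97 ± 0.07, adjusted p = 0.000132). Ggps1, which extends farnesyl to geranylgeranyl diphosphate, went from 8.89, 9.04 and 9.04 to 8.18, 8.18 and 8.25, or -0.78 ± 0.06 (adjusted p = 0.000187).

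From squalene onwards the directions were mixed: of 10 enzymes 4 were lower, 5 higher and 1 did not pass, with a median difference of 0.11. The same background of 25.1% lower and 26.1% higher applies. Fdft1, the squalene synthase that commits farnesyl units to sterols, went from 10.21, 10.22 and 10.24 to 10.02, 9.93 and 9.99. The groups were apart but the difference was small (-0.25 ± 0.05, adjusted p = 0.0119). The other rows for Fdft1 gave -0.15 and 0.09, neither of which passed, so the call rests on 1 row of 3. Sqle, the squalene epoxidase, was the most even of these genes across arrays, at 10.29, 10.29 and 10.26 against 9.78, 9.81 and 9.79. It fell 1.40-fold (-0.49 ± 0.05, adjusted p = 0.000405).

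The next 3 enzymes were all higher in the clone. Lss, which closes the rings to lanosterol, went from 8.49, 8.59 and 8.57 to 8.81, 8.88 and 8.72 (0.25 ± 0.06, adjusted p = 0.0250). Cyp51, the lanosterol demethylase, went from 10.40, 10.61 and 10.49 to 10.79, 10.81 and 10.83 (0.31 ± 0.06, adjusted p = 0.0134). Tm7sf2, a sterol reductase of the step that follows, went from 6.55, 6.71 and 6.66 to 7.16, 7.18 and 7.39. It had the largest rise among the 33 genes, 1.52-fold (0.61 ± 0.08, adjusted p = 0.00198). The call for Lss held with all 6 arrays and without clone array 3, but was lost without any one of the others, with an adjusted p of up to 0.0766.

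Sc4mol (now Msmo1), Nsdhl and Hsd17b7 together remove the methyl groups at one carbon of the sterol ring, and they did not move together. Sc4mol, the monooxygenase, went from 11.36, 11.50 and 11.52 to 11.01, 10.93 and 10.95 (-0.49 ± 0.06, adjusted p = 0.00147). Nsdhl, the dehydrogenase, went from 7.97, 8.07 and 8.04 to 7.81, 7.79 and 7.81 (-0.22 ± 0.05, adjusted p = 0.0206). Hsd17b7, the ketosteroid reductase, went the other way, from 9.47, 9.53 and 9.45 to 9.68, 9.71 and 9.77 (0.24 ± 0.05, adjusted p = 0.0173). The calls for Nsdhl and Hsd17b7 were lost in 5 and 3 of the 6 fits that left out an array, with adjusted p-values of up to 0.0703 and 0.0641. For Nsdhl these were the fits without population array 2 or 3 or any clone array, and for Hsd17b7 those without population array 1 or 3 or clone array 3. Ebp, the sterol isomerase, had overlapping groups (8.0 to 8.21 and 7.98 to 8.13) and did not pass (-0.02 ± 0.08, 95% interval -0.20 to 0.16, adjusted p = 0.932). Dhcr7, the reductase that completes cholesterol, went from 7.51, 7.57 and 7.48 to 8.04, 8.0 and 8.01. Its rise of 0.50 ± 0.05 (1.41-fold, adjusted p = 0.000553) was among the clearest in the set.

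**Figure D3:**
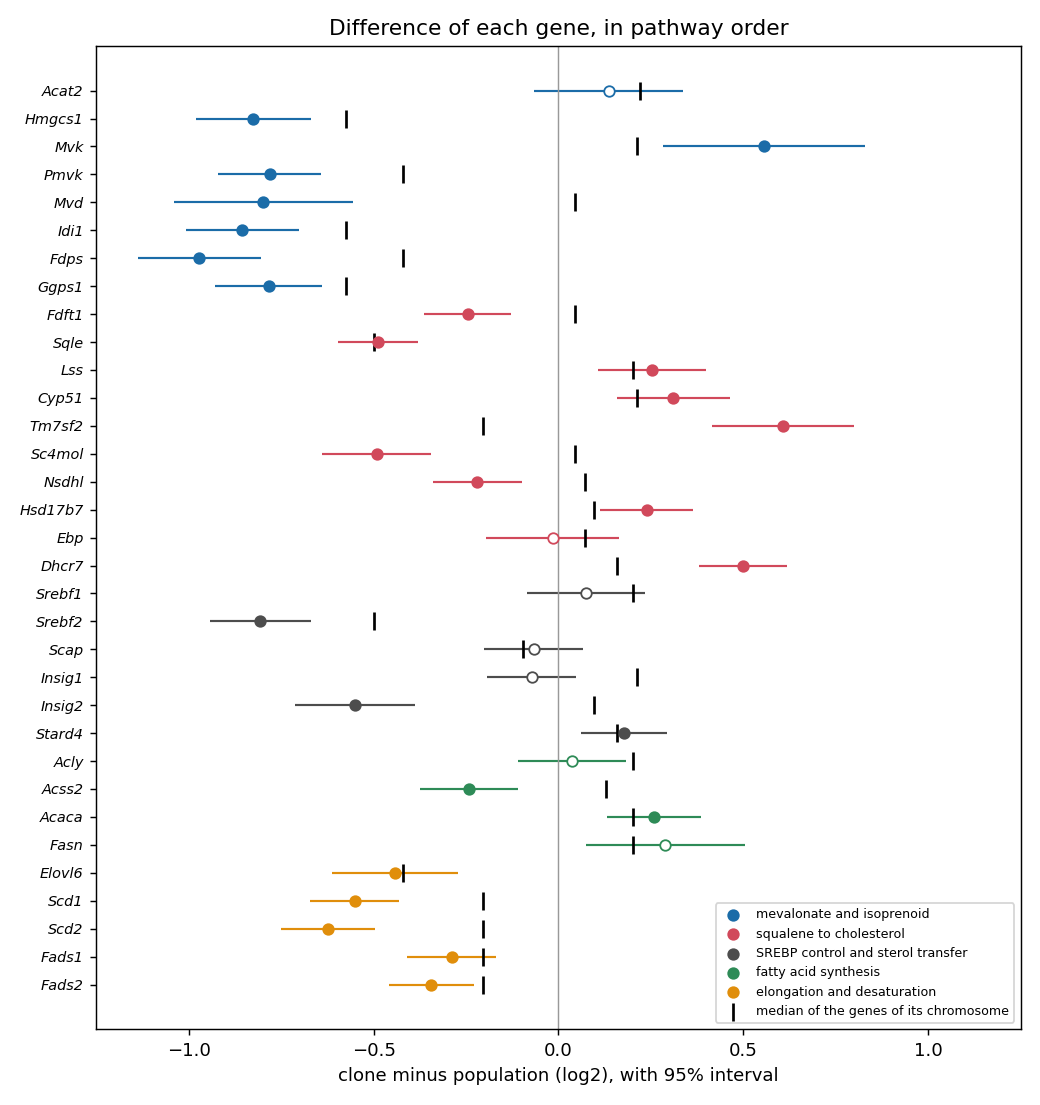
Difference of each gene (clone minus population, log2, x axis) with its 95% interval from limma, in pathway order down the y axis and coloured by role; filled points had an adjusted p under 0.05 and black ticks give the median difference of the genes of the same chromosome. The 6 early enzymes that fell lie between -0.97 and -0.78, the later sterol enzymes on both sides of 0, and the 5 elongation and desaturation genes all below 0.

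Among the 6 genes of SREBP control and sterol transfer 2 were lower, 1 was higher and 3 did not pass. The background was 25.1% lower and 26.1% higher. The higher gene was the sterol carrier Stard4, and no gene of SREBP control itself was called higher. Srebf2, the precursor gene of the sterol-directed factor, stood at 10.19, 10.18 and 10.17 in the population and at 9.28, 9.41 and 9.43 in the clone. This was a 1.75-fold fall (-0.81 ± 0.06, adjusted p = 0.000126). Srebf1, the gene of the SREBP-1 forms, gave 7.48 to 7.55 and 7.52 to 7.72, with overlapping groups (0.07 ± 0.07, 95% interval -0.09 to 0.23, adjusted p = 0.535). The interval of Srebf1 does not reach the change of Srebf2, but the difference between the 2 genes was not tested. Scap, the escort protein gene, also overlapped between groups (7.96 to 8.0 and 7.83 to 7.97) and did not pass (-0.07 ± 0.06, adjusted p = 0.494).

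Of the retention genes Insig2 fell and Insig1 did not pass. Insig2 went from 10.26, 10.25 and 10.12 to 9.70, 9.56 and 9.71, a 1.46-fold fall (-0.55 ± 0.07, adjusted p = 0.00140). Insig1, which is itself an SREBP target in many cells, lay at 11.05, 11.03 and 11.05 against 11.02, 10.92 and 10.97. All its clone arrays were below the population arrays, by so little that the test was not passed (-0.07 ± 0.05, 95% interval -0.19 to 0.05, adjusted p = 0.404). Stard4, a carrier that moves sterol between membranes, went from 9.08, 9.15 and 9.11 to 9.32, 9.28 and 9.28. Its call (0.18 ± 0.05, adjusted p = 0.0405) was lost whichever of the 6 arrays was left out, with an adjusted p of up to 0.124.

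The 4 genes that make fatty acid from citrate and acetate showed no common direction. Acly, which releases acetyl-CoA from citrate, lay at 9.99 to 10.04 and 9.98 to 10.15 and did not pass (0.04 ± 0.06, 95% interval -0.11 to 0.18, adjusted p = 0.772). Acss2, which makes acetyl-CoA from acetate, went from 6.03, 5.94 and 5.98 to 5.79, 5.76 and 5.68. Its small fall (-0.24 ± 0.06, adjusted p = 0.0200) was lost without population array 1 or 3 or clone array 3, with an adjusted p of up to 0.0664. Acaca, the acetyl-CoA carboxylase, went from 8.49, 8.43 and 8.56 to 8.74, 8.76 and 8.74 (0.26 ± 0.05, adjusted p = 0.0130), while a further row gave 0.05 and did not pass. Fasn, the fatty acid synthase, lay at 9.24, 8.94 and 9.09 and at 9.35, 9.48 and 9.31. All clone values for Fasn were above all population values, but population array 1 lay close to them and the test was missed (0.29 ± 0.09, adjusted p = 0.0630). Without population array 1 the difference for Fasn was 0.36 and the test was passed.

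All 5 genes that lengthen fatty acids or place double bonds in them were lower in the clone, with non-overlapping groups and a median difference of -0.44. Among genes above the median level 25.1% were called lower and 31.5% had the clone wholly lower. Elovl6, the elongase of saturated chains, went from 7.73, 7.81 and 7.79 to 7.40, 7.40 and 7.20 (-0.44 ± 0.07, adjusted p = 0.00458). Scd1, a desaturase that makes oleate, went from 10.27, 10.18 and 10.26 to 9.70, 9.69 and 9.67 (-0.55 ± 0.05, adjusted p = 0.000371). Its close relative Scd2 went from 12.10, 12.16 and 12.21 to 11.57, 11.53 and 11.50 (-0.62 ± 0.05, adjusted p = 0.000277). Scd1 and Scd2 are similar in sequence, and the sources used here do not say how far their probes tell them apart. Fads1, a desaturase of polyunsaturated fatty acids, went from 10.98, 10.92 and 10.96 to 10.63, 10.65 and 10.71 (-0.29 ± 0.05, adjusted p = 0.00626). Fads2, which acts before it in the same route, went from 10.26, 10.25 and 10.31 to 9.91, 9.96 and 9.92 (-0.34 ± 0.05, adjusted p = 0.00239). Scd1, Scd2, Fads1 and Fads2 all lie on chromosome 19, so they share a chromosome as well as a role. With values centred on chromosome medians, as described below, Elovl6 (0.11), Fads1 (0.03) and Fads2 (-0.02) did not pass. Scd1 and Scd2 stayed lower there.

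Whole chromosomes differed between the groups, and many of the genes that fell lie on chromosomes whose genes were lower together. Several genes that rose lie on chromosomes with medians above 0. Median differences of the genes above the median level were -0.58 on chromosome 13, -0.50 on 15, -0.42 on 3 and -0.20 on 19. They were 0.21 on chromosome 5 (Mvk and Cyp51), 0.20 on 10 (Lss) and on 11 (Acaca), and 0.16 on 18 (Stard4). Hmgcs1, Idi1 and Ggps1 lie on chromosome 13, Sqle and Srebf2 on 15, and Pmvk, Fdps and Elovl6 on 3. All 8 of these were lower, where 67.1% of the 1412 genes above the median level on those 3 chromosomes were called lower. Of the 25 genes on other chromosomes 10 were lower and 8 higher, at backgrounds of 19.7% and 29.1%, and their median difference was -0.02. Chromosomes 3, 13 and 15 were picked with their medians known.

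Set against its own chromosome, a gene could look different. Fdps lay 0.55 below the median of chromosome 3 and Pmvk 0.36 below it, and Elovl6 0.02 below. Srebf2 lay 0.31 below the median of chromosome 15, while Sqle lay 0.01 above it. Idi1, Hmgcs1 and Ggps1 lay 0.28, 0.25 and 0.21 below the median of chromosome 13. On chromosomes with medians near 0 or above, Mvd lay 0.84 below its chromosome, Insig2 0.65 and Sc4mol 0.54. On chromosome 19, Scd2 and Scd1 lay 0.42 and 0.35 below, and Fads2 and Fads1 0.14 and 0.09 below. Tm7sf2, on the same chromosome, lay 0.81 above. Among the other higher genes, Mvk and Dhcr7 lay 0.34 above the medians of their chromosomes. Hsd17b7, Cyp51, Acaca, Lss and Stard4 lay 0.14, 0.10, 0.06, 0.05 and 0.02 above theirs.

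With each array's values centred on its chromosome medians, 13 of the 33 genes were lower and 3 higher, at backgrounds of 22.6% lower and 23.5% higher among genes above the median level. This setting takes off the median level of each chromosome on each array. Its shift can differ from the median differences given above, and for Hmgcs1 (-0.83 before centring) it was larger than the -0.58 of chromosome 13. Of the 18 lower genes 11 remained so. The 7 that did not pass were Hmgcs1 (-0.15, adjusted p = 0.211), Idi1 (-0.18, adjusted p = 0.0753) and Ggps1 (-0.10, adjusted p = 0.296) of chromosome 13, with Sqle, Elovl6, Fads1 and Fads2. Insig1 (-0.24, adjusted p = 0.0391) and Acly (-0.19, adjusted p = 0.0400) were lower there, and Mvk, Tm7sf2 and Dhcr7 remained higher. The higher genes Lss, Cyp51, Hsd17b7, Stard4 and Acaca did not pass there.

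With the median deviation of each chromosome removed from every array, a setting chosen after seeing the data, 15 of the 33 genes were lower and 2 higher. The background in that setting was 23.6% lower and 23.3% higher among genes above the median level. Of the 18 lower genes 14 remained so, and Insig1 (-0.27, adjusted p = 0.00881) joined them. Hmgcs1 (-0.27, adjusted p = 0.0268), Idi1 (-0.30, adjusted p = 0.0107) and Ggps1 (-0.22, adjusted p = 0.0292) were among those that remained. The 4 that did not pass there were Sqle (0.02, adjusted p = 0.834), Elovl6 (-0.03, adjusted p = 0.811), Fads1 (-0.06, adjusted p = 0.444) and Fads2 (-0.12, adjusted p = 0.115). Of the 8 higher genes Tm7sf2 (0.83, adjusted p = 0.000705) and Dhcr7 (0.35, adjusted p = 0.00335) remained, while Mvk had 0.35 and an adjusted p of 0.0549.

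**Figure D4:**
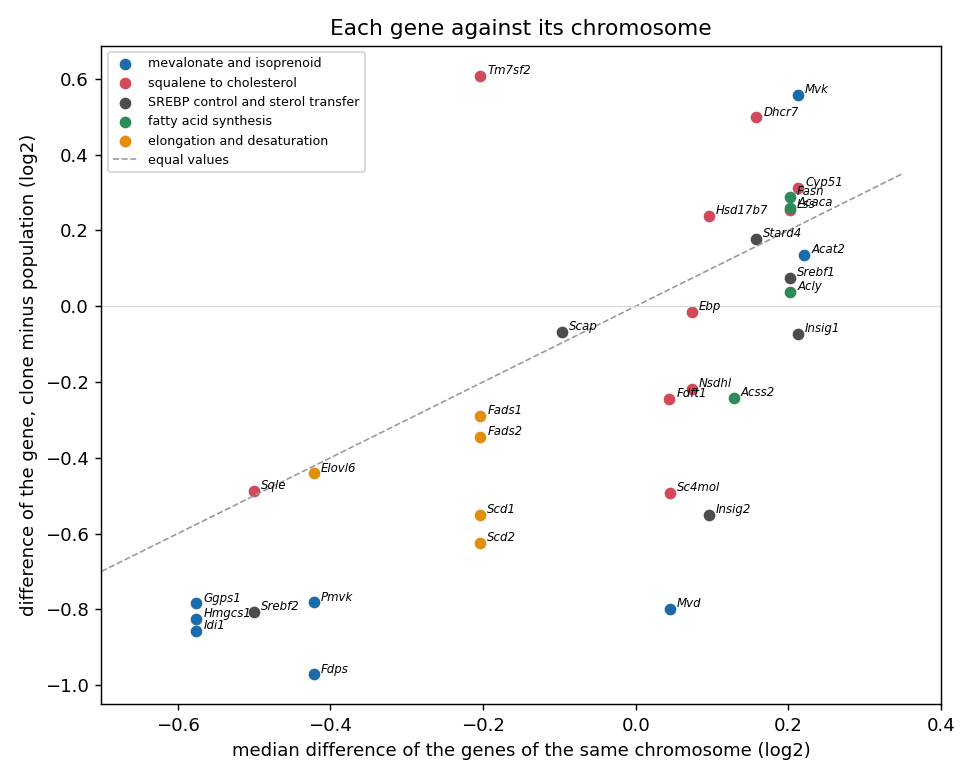
Difference of each of the 33 genes (clone minus population, log2, y axis) against the median difference of the genes above the median level on its chromosome (x axis), coloured by role; the dashed line marks equal values. Sqle, Elovl6 and Stard4 lie on the line, Mvd, Insig2, Fdps and Sc4mol far below it, and Tm7sf2, Mvk and Dhcr7 above it.

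Genes of the same pathways outside the 33 were taken from 7 lists. In these lists 9.09% to 42.9% of genes were called lower and 9.09% to 28.6% higher. The background among genes above the median level was 25.1% lower and 26.1% higher. Below the array medians in both groups lay 1 uptake and transport gene, 4 LXR and efflux genes, 4 ester and oxysterol genes and 6 fatty acid genes. Of 8 other sterol synthesis genes 3 were lower and 2 higher (median difference -0.09). Sc5d, the desaturase of a late step, fell 1.59-fold (-0.67 ± 0.05, adjusted p = 0.000166). Lbr, whose product can catalyse the same reduction as that of Tm7sf2, rose 1.41-fold (0.49 ± 0.10, adjusted p = 0.0109), as Tm7sf2 did. Of 11 genes that use isoprenoids 4 were lower and 1 higher (median 0.06). The protein prenylation genes Rabggtb (-0.71 ± 0.08) and Icmt (-0.51 ± 0.05) and the ubiquinone gene Coq2 (-0.68 ± 0.07) fell, and Pggt1b, a subunit of a geranylgeranyl transferase, rose (0.47 ± 0.11, adjusted p = 0.0255). With values centred on chromosome medians Rabggtb did not pass (-0.16, adjusted p = 0.310), while Icmt, Coq2 and Pggt1b did.

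Of 12 genes that process, degrade or assist SREBP 4 were lower and 2 higher (median -0.18). Fbxw7, a ubiquitin ligase subunit that targets nuclear SREBP, fell 1.64-fold (-0.71 ± 0.06, adjusted p = 0.000347). Paqr3, a Golgi protein that tethers Scap, fell 1.48-fold. Of the NF-Y subunit genes Nfyb (0.45 ± 0.10) and Nfya (0.28 ± 0.05) rose, and Nfyc (-0.27 ± 0.06, adjusted p = 0.0198) fell, as did Sp1 (-0.23 ± 0.05, adjusted p = 0.0241). With values centred on chromosome medians, Sp1, on chromosome 15, was instead higher (0.31, adjusted p = 0.0174). In that setting Nfyc (0.02), Nfya (-0.02), Nfyb (0.13) and Fbxw7 (-0.17) did not pass, and Paqr3 (-0.73) stayed lower. Neither protease gene passed, with Mbtps1 at -0.05 ± 0.08 and Mbtps2 at 0.05 ± 0.07, and Nfyc, Sp1 and both proteases were named after their values were seen.

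Sterol uptake and transport genes gave 3 lower and 3 higher of 14 (median 0.02). Stard5 and Stard3, both sterol-binding proteins related to Stard4, rose 2.20-fold and 1.90-fold (1.14 ± 0.13 and 0.92 ± 0.08). Npc1, which exports cholesterol from lysosomes, rose 1.46-fold. LXR and efflux genes gave 1 lower and 3 higher of 11 (median -0.11), with Rxra at 0.45 ± 0.09, Lpcat3 at 0.37 ± 0.07, Nr1h3 at 0.32 ± 0.06 from a level below the array medians, and Arl4c at -0.44 ± 0.06. Genes of sterol esters and oxysterols gave 2 lower and 2 higher of 9 (median 0.04). Cyp39a1, an oxysterol hydroxylase, rose 2.75-fold (1.46 ± 0.07, adjusted p = 3.25e-05), and Soat1, the sterol esterifying enzyme, rose (0.32 ± 0.07). Soat2 (-0.82 ± 0.06, to 4.80, under the medians of the arrays) and Cyp7b1 (-0.49 ± 0.07) fell. With values centred on chromosome medians Rxra (0.29), Nr1h3 (0.16) and Cyp7b1 (0.06) did not pass, and the other genes named in this paragraph did.

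Other fatty acid genes gave 12 lower and 8 higher of 28 (median -0.05). The elongase gene Elovl7, on chromosome 13, went from 7.91, 7.94 and 7.95 to 5.67, 5.60 and 5.64, a 4.91-fold fall (adjusted p = 1.13e-06). Acsl1, which activates fatty acids with coenzyme A, went from 7.48, 7.49 and 7.52 to 9.05, 9.21 and 9.01, a 3.02-fold rise (adjusted p = 1.33e-05). Both changes were larger than any among the 33 genes. Fads3, a relative of Fads1 and Fads2, fell 1.70-fold (-0.77 ± 0.06) and Slc25a1, which exports the citrate that Acly uses, fell 1.68-fold (-0.75 ± 0.05).

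**Figure D5:**
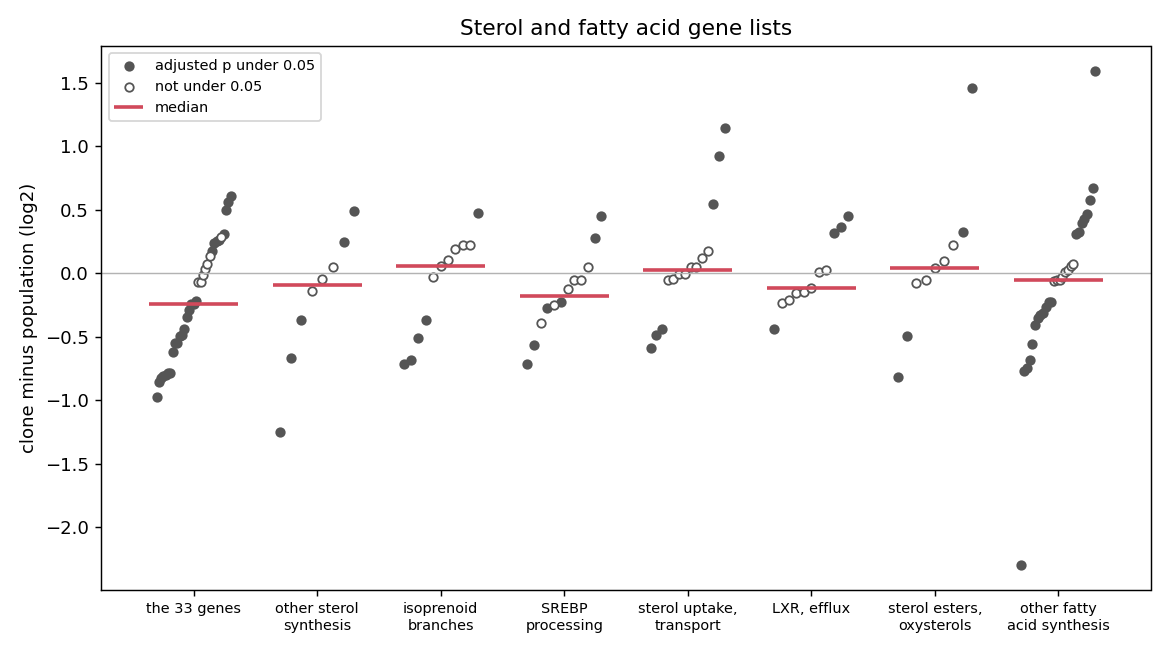
Difference (clone minus population, log2, y axis) of every gene of the 33 and of 7 further lists (x axis), sorted within each list; filled points had an adjusted p under 0.05 and red lines give list medians. The 33 genes have the lowest median, -0.24, and the other list medians lie between -0.18 and 0.06.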

How the data were processed

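Total RNA of 3 population and 3 clone cultures was extracted with TRI reagent and hybridised as biotinylated cRNA to Affymetrix arrays, per the labels' protocols. The sources used here do not name the array type, its annotation or a build. The deposited log2 values are RMA values from the authors' work in Partek, per the submitters' processing notes. RMA makes the arrays' distributions alike, which hides any change in the total RNA of a cell. The authors' deposited table gives a p-value per row, not adjusted, and a signed linear fold (unit: score), per the file headers. Its log2 fold matched the difference of group means to within 7.81e-05. A further 6 per-array columns there match no label and were not used.

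limma 3.58.1 (lmFit, eBayes) in R 4.3.3 was fitted to all 35556 rows, with Benjamini-Hochberg adjustment of its two-sided p-values. Every adjusted p in the text is from limma's moderated test, except that of Mvk without moderation, which is from an ordinary t-test. The method was tested on simulated data with independent noise in each row. These held few changed rows and no shifts of whole chromosomes, so the test does not bear on such shifts. Depth does not apply; the number of arrays limits precision. Each gene was read from its row with the highest mean over 6 arrays. Chromosomes came from RefSeq (GRCm38.p6), matched by symbol. Same-numbered arrays did not deviate together (r = -0.20, -0.16 and -0.04), so the numbers were not used as pairs.

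The 33 genes, the lists and the tests were chosen with earlier results of these data known. The rule named all 33 genes and up to 4 passing genes per further list, those with the largest differences first. Some genes of these lists are not reported here. Alternatives were other normalizations, moderation, thresholds, filters, rows per gene, the deposited p-values, chromosome centring, a replicate block and leaving out each array.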

Additional observations from a re-analysis of the deposited data

How the results depend on the processing

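The count of 18 lower genes stayed between 13 and 18 in every alternative except a minimum of 1.5-fold, which left 8, and was 16 to 17 when single arrays were left out. The count of 8 higher genes was 1 with a minimum of 1.5-fold, 2 at an adjusted p under 0.01, 3 with values centred on chromosome medians, 2 with chromosome deviations removed (chosen after seeing the data) and 4 with the sample number as a replicate block, and 5 to 6 when single arrays were left out, the lowest being without population array 3. It lay between 6 and 9 in the other alternatives. With the replicate block 15 genes remained lower, and Fdft1, Nsdhl, Acss2, Lss, Hsd17b7, Stard4 and Acaca lost their calls. As the numbers do not pair the samples, this says nothing of their strength. With values centred on chromosome medians the sign of a called value turned for Sqle (0.049), Lss (-0.062), Elovl6 (0.11), Fads1 (0.033) and Acly (-0.19, adjusted p = 0.0400), and with chromosome deviations removed for Sqle (0.016). In one or both of these settings Acat2, Srebf1, Scap and Acly also changed sign with no call in either fit. Of 693 single-gene results under alternatives 588 kept their direction and call, 83 lost the call, 6 gained one and 16 changed sign, 10 of these with no call in either fit. Without any single array 16 of the 18 lower genes and 5 of the 8 higher ones kept their calls in all 6 fits. With 3 arrays a group, calls near the threshold depend on each array.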
